A study of Mus musculus with 8 samples.

Results

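The genes described here are 7 regulators and markers of the anterior visceral and definitive endoderm, namely Foxa2, Cer1, Hhex, Lhx1, Gsc, Trh and Cxcr4. They were taken by name, as every probe other than control probes whose transcript belongs to 1 of these genes. The array carries 8 such probes among 39429, with 2 for Foxa2 and 1 for each of the others. Of the 7 genes, 6 were well above background on all 8 arrays and entered the test among 22427 genes, whereas Cer1 was too dim to pass the filter and is given by its values only.

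R1 is a mouse embryonic stem cell line. The cells were transfected with a control siRNA (Control, 3 arrays) or with either of 2 siRNAs against CnAb1 (siRNA 1 with 3 arrays, siRNA 2 with 2 arrays). CnAb1 is a splice form of the calcineurin A beta subunit, which is encoded by Ppp3cb. In all 3 groups the cells were grown as embryoid bodies, suspended aggregates that start to form the germ layers, which the title of the series places on the way to mesoderm, and total RNA was taken 48 hours after transfection. The labels do not say whether replicates were separate cultures. A p-value here therefore reflects the spread among these 8 samples alone, and that spread may be technical. An embryoid body is a mixture of cells, and in such bulk RNA fewer cells of a type and less RNA per cell cannot be told apart.

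The anterior visceral endoderm is a signalling centre outside the embryo proper that secretes antagonists of Nodal and Wnt and so marks the future head side. The definitive endoderm, the source of gut, liver and pancreas, leaves the anterior primitive streak under strong Nodal signalling, which acts through Smad2 and Smad3 with the factors Foxh1 and Eomes. Foxa2, Hhex, Lhx1 and Gsc are transcription factors of these tissues and of the organizer. Cer1 is a secreted antagonist, Trh the precursor of a hormone, and Cxcr4 a chemokine receptor.

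Each array held 43020 spots for transcripts, of which 68.0% to 75.1% were well above background and 0 were saturated. Precision is limited by how few arrays there were. Values are log2 signal relative to the 75th percentile of the array, so that 0 is the level of that percentile. The arrays lay on 3 slides. The first replicates of all groups shared slide 1. Control replicate 2 shared slide 2 with siRNA 1 replicate 3, and Control replicate 3 shared slide 3 with replicate 2 of both siRNAs. Control always lay at position 1 of its slide, siRNA 1 at position 2 and siRNA 2 at position 3, so group and position cannot be told apart. The single probe of Ppp3cb, which is not known here to read the CnAb1 splice form, came to 0.72 ± 0.12 (SD) over the 3 Control arrays. It came to 0.47 ± 0.20 (SD) over the 3 arrays of siRNA 1 and 0.60 ± 0.14 (SD) over the 2 arrays of siRNA 2, and the groups overlapped.

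Calcineurin dephosphorylates NFAT factors, which bind a GGAAA core. Sites of forkhead, homeodomain, T-box and Smad factors were searched as well. Foxa2, Gsc and Trh were the 3 genes with the largest differences under siRNA 2, and the 250 bases before their start sites are shown for that reason. The sequences are from RefSeq, assembly GRCm38.p6, read 5′ to 3′ on the minus strand of each gene, at chr2:148046970-148047219 for the farthest upstream of the 3 Foxa2 starts, chr12:104473237-104473486 for Gsc and chr6:92244651-92244900 for Trh. Capitals mark GGAAA or its complement TTTCC.
Foxa2: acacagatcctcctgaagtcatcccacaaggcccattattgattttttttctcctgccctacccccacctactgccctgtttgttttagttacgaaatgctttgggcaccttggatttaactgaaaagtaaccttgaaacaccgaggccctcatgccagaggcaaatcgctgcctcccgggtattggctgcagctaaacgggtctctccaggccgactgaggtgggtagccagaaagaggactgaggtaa
Gsc: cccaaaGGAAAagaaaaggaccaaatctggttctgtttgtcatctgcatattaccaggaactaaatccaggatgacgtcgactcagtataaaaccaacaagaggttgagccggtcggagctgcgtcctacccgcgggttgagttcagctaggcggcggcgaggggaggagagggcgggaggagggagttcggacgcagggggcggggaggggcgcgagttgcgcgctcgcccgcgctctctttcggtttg
Trh: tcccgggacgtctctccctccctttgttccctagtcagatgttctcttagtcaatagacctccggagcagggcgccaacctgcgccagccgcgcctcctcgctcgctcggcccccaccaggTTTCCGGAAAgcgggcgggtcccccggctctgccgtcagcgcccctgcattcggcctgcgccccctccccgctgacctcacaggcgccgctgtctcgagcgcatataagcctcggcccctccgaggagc
The Foxa2 window shown did not hold GGAAA on either strand. The window of the farthest downstream Foxa2 start, not shown, held TTTCC at 242 bases before that start site. The Gsc window held 1 GGAAA, which begins 244 bases before the start site. The Trh window held GGAAA on both strands, at 124 and 129 bases before the start site and directly next to each other. All 7 genes had a RefSeq start site, with 9 windows in all. GGAAA was found on either strand in 4 of the 9 windows, against 55.6% of 32851 RefSeq windows of the same length. The Smad core CAGAC was found in 2 of them, those of Cer1 and Lhx1, against 42.2%. The homeodomain site TAATTA, which reads the same on both strands, was found in the window of Cer1, against 4.84%. The sites TAATCC (bicoid-type homeodomain, 6.25%), TGTTTAC (forkhead, 3.17%), TCACACCT (T-box, 1.12%) and AATCCACA (FOXH1, 0.718%) were found in 0 of the 9 windows. Every site was searched on both strands.

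The clearest lower values lay in siRNA 2. Foxa2, Gsc and Trh stood 2.91, 2.31 and 2.09 times lower there than in Control, and no siRNA 2 array overlapped the Control arrays for these genes. Hhex was also lower without overlap, by a much smaller difference. Of all genes tested, 8.96% were lower in siRNA 2 than in Control without overlap. Lhx1 and Cxcr4 overlapped in every comparison with Control. In siRNA 1 the groups overlapped for all 6 tested genes. None of these differences passed the test across all genes.

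**Figure D1:**
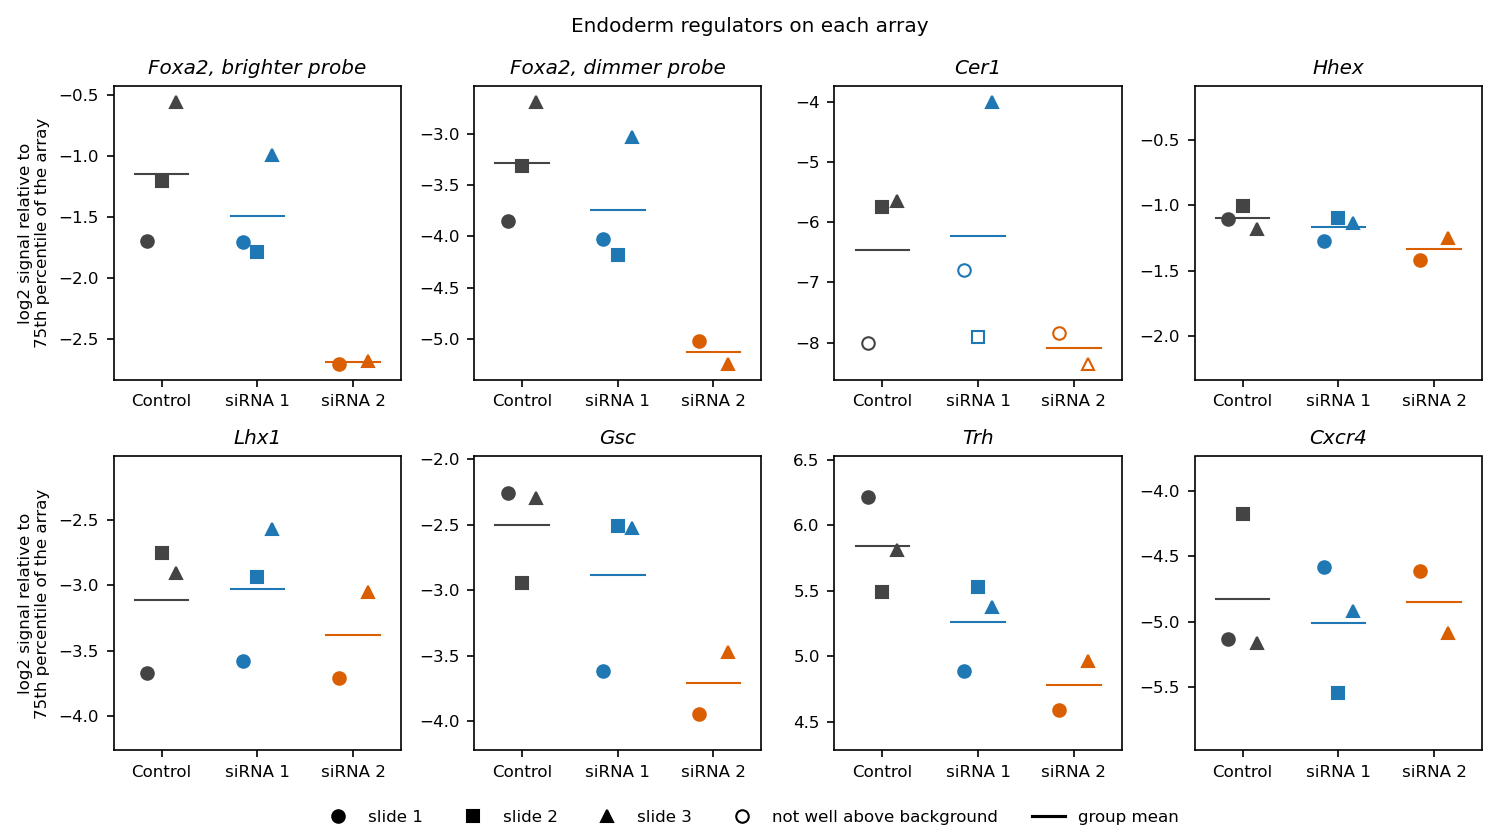
Log2 signal relative to the 75th percentile of the array (y axis) for the 8 probes of the 7 genes in Control, siRNA 1 and siRNA 2 (x axis), 1 point per array, with the slide as the shape, hollow points not well above background and lines at group means. The y axes differ in position and range between panels. The siRNA 2 points of both Foxa2 probes, Gsc and Trh lie below every Control point. For Lhx1 the points of slide 1 lie below all others, and those of the other slides are mixed.

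Foxa2 encodes a forkhead factor that opens chromatin at endoderm genes and is needed for node, notochord and endoderm. Its brighter probe (A_55_P2134236) was at -1.69, -1.20 and -0.56 in Control replicates 1, 2 and 3. It was at -1.70, -0.99 and -1.78 in siRNA 1 replicates 1, 2 and 3, and at -2.70 and -2.68 in siRNA 2 replicates 1 and 2. The Control and siRNA 1 arrays overlapped and did not differ beyond their spread, and both siRNA 2 arrays lay below all 6 of them. Control averaged -1.15 ± 0.57 (SD, n = 3), siRNA 1 averaged -1.49 ± 0.44 (SD, n = 3) and siRNA 2 averaged -2.69 ± 0.018 (SD, n = 2). The difference from Control was -1.54 ± 0.36 (SE) for siRNA 2 and -0.34 ± 0.32 (SE) for siRNA 1, and siRNA 2 stood below siRNA 1 by a difference of -1.20 ± 0.36 (SE). The siRNA 1 difference was -0.045 without Control replicate 3, -0.61 without Control replicate 1 and -0.59 without siRNA 1 replicate 2. Only 0.0669% of the genes tested had a lower difference in siRNA 2 than Foxa2. The Benjamini-Hochberg adjusted p of limma was 1.00 in each of these comparisons.

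The dimmer Foxa2 probe (A_55_P2067533) gave the same order of groups. It was at -3.85, -3.31 and -2.69 in Control, -4.03, -3.02 and -4.18 in siRNA 1, and -5.02 and -5.25 in siRNA 2, each in the order of replicates. The siRNA 2 arrays again lay below all others. Its difference from Control was -1.85 ± 0.42 (SE) in siRNA 2 and -0.46 ± 0.38 (SE) in siRNA 1. Both probes read the same RNA samples, so they are not separate replicates.

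Gsc encodes goosecoid, a homeodomain repressor of the organizer and anterior streak. It was at -2.26, -2.94 and -2.30 in Control, -3.61, -2.52 and -2.51 in siRNA 1, and -3.94 and -3.47 in siRNA 2. Both siRNA 2 arrays lay below the 3 Control arrays, while siRNA 1 replicate 1 lay between the siRNA 2 arrays and the other siRNA 1 arrays lay within the Control range. Control averaged -2.50 ± 0.38 (SD, n = 3), siRNA 1 averaged -2.88 ± 0.63 (SD, n = 3) and siRNA 2 averaged -3.71 ± 0.33 (SD, n = 2). The difference from Control was -1.21 ± 0.38 (SE) in siRNA 2 and -0.38 ± 0.34 (SE) in siRNA 1, and limma's adjusted p was 1.00 in both. Without siRNA 1 replicate 1 the siRNA 1 difference was -0.017, and it reached -0.60 without Control replicate 2. With normexp background correction and quantile normalization the siRNA 2 difference was -0.59.

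Trh encodes the precursor of thyrotropin-releasing hormone and serves as a marker of early definitive endoderm in the mouse. Its signal lay far above the 75th percentile on all 8 arrays. It was at 6.21, 5.49 and 5.81 in Control, 4.89, 5.38 and 5.53 in siRNA 1, and 4.59 and 4.96 in siRNA 2. The siRNA 2 arrays lay below all Control arrays, and 2 of the 3 siRNA 1 arrays did so too. Control averaged 5.84 ± 0.36 (SD, n = 3), siRNA 1 averaged 5.26 ± 0.33 (SD, n = 3) and siRNA 2 averaged 4.78 ± 0.26 (SD, n = 2), with siRNA 1 between the others and overlapping Control at 1 array. The difference from Control was -1.06 ± 0.27 (SE) in siRNA 2 and -0.58 ± 0.24 (SE) in siRNA 1, and limma's adjusted p was 1.00 in both. Without the arrays of slide 1 the siRNA 2 difference was -0.69.

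Hhex encodes a homeodomain repressor of the anterior visceral endoderm and of the early liver and thyroid. It was at -1.11, -1.01 and -1.19 in Control, -1.27, -1.14 and -1.10 in siRNA 1, and -1.42 and -1.25 in siRNA 2. Its values were close together on all arrays, and the higher siRNA 2 array lay just below the lowest Control array. The difference from Control was -0.23 ± 0.11 (SE) in siRNA 2, with a 95% interval from -0.48 to 0.014. In siRNA 1 it was -0.07 ± 0.09 (SE), with an interval from -0.29 to 0.15.

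Lhx1 encodes a LIM homeodomain factor of the anterior visceral endoderm, streak and node, which works with the cofactor Ldb1. It was at -3.67, -2.76 and -2.91 in Control, -3.58, -2.57 and -2.93 in siRNA 1, and -3.71 and -3.05 in siRNA 2. Replicate 1 was the lowest of each group, and those 3 arrays share slide 1. Within groups, slide 1 minus the other slides gave -0.78 ± 0.11 (SE) for Lhx1, with a limma adjusted p of 0.00807. Of all genes tested, 5.02% were lower on slide 1 at this threshold, and Lhx1 was the only tested member of the 7 among them. The difference from Control was -0.27 (95% interval -1.17 to 0.63) in siRNA 2 and 0.08 (-0.72 to 0.89) in siRNA 1. Within each slide it lay between -0.18 and 0.33, so the arrays of a slide were closer to each other than slide 1 was to the rest.

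Cxcr4, the receptor of the chemokine Cxcl12, is a surface marker by which definitive endoderm is sorted. Its probe lay close to the lowest signals above background, which ranged from -6.38 to -5.92 over the arrays. It was at -5.13, -4.18 and -5.16 in Control, -4.58, -4.92 and -5.55 in siRNA 1, and -4.61 and -5.08 in siRNA 2. The groups overlapped throughout. The difference from Control was -0.02 (95% interval -0.93 to 0.88) in siRNA 2 and -0.19 (-1.002 to 0.62) in siRNA 1, intervals wide enough to hold differences as large as those of Trh in siRNA 1. Its direction turned with Control replicate 2 left out, to 0.30 in siRNA 2 and 0.13 in siRNA 1. Cxcl12, its ligand, was at -0.42 relative to Control in siRNA 2 and -0.48 in siRNA 1. The groups overlapped for Cxcl12, at 1.32 to 2.14 in Control, 0.77 to 1.70 in siRNA 1 and 1.24 to 1.47 in siRNA 2.

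Cer1 encodes Cerberus, a secreted antagonist of Nodal and BMP ligands from the anterior visceral endoderm. Its probe was well above background on Control replicates 2 and 3, at -5.75 and -5.64, and on siRNA 1 replicate 2, at -3.996. On Control replicate 1, at -8.01, on siRNA 1 replicates 1 and 3, at -6.79 and -7.92, and on both siRNA 2 arrays, at -7.84 and -8.36, it was not well above background. It was thus above background on 2 of 3 Control arrays, 1 of 3 siRNA 1 arrays and 0 of 2 siRNA 2 arrays. Signals below background have no order, and no fold is given.

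Counted over the comparisons, 0 of the 6 tested genes passed an adjusted p of 0.05 in limma in any comparison, be it either siRNA or their mean against Control or siRNA 2 against siRNA 1, and 0 of 22427 genes passed (0%). At an unadjusted p under 0.05 in limma, Foxa2, Gsc and Trh passed in siRNA 2, 3 of 6, all lower, where 2.24% of all genes passed as lower. The same 3 genes passed as lower when the siRNAs were averaged (1.45% of all genes), Trh alone in siRNA 1 (1.03%) and Foxa2 alone in siRNA 2 against siRNA 1 (2.65%). Without overlap, 4 of 6 were lower in siRNA 2 than in Control where 8.96% of all genes were, and Foxa2 alone was lower in siRNA 2 than in siRNA 1 where 11.9% were. For siRNA 1 (2.86%) and for both siRNAs together (1.16%) it was 0 of 6. All 6 differences were below 0 in siRNA 2, where 52.3% of all genes were, with a median of -0.67 against -0.01 over all genes. In siRNA 1, 5 of 6 were below 0, where 44.7% of all genes were, with a median of -0.27 against 0.02. Both siRNAs are compared with the same Control arrays, and the genes were chosen with earlier results of these data known. The 6 genes were read on the same arrays and are not separate draws from all genes. Over the 8 arrays their pairs correlated from r = -0.52 for Gsc and Cxcr4 to r = 0.93 for Gsc and Trh.

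Within slides, each siRNA array can be set against the Control array beside it. For Foxa2 the siRNA 2 difference was -1.01 on slide 1 and -2.12 on slide 3. The siRNA 2 values were nearly equal on the 2 slides, and the difference followed the Control arrays. For siRNA 1 it was -0.01, -0.58 and -0.43 on slides 1, 2 and 3. Foxa2 was the only one of the 6 that was lower on all 5 siRNA arrays than on the Control array of their slide, as 4.42% of all genes were.

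For Gsc the siRNA 2 differences were -1.69 on slide 1 and -1.17 on slide 3, and those of siRNA 1 were -1.35, 0.43 and -0.22 on slides 1, 2 and 3. For Trh they were -1.62 and -0.85 in siRNA 2, and -1.33, 0.03 and -0.43 in siRNA 1. In both genes slide 1 gave the largest difference and slide 2 none below 0, and Control replicate 1 was the highest of all 8 arrays. Without the arrays of slide 1 the Gsc difference in siRNA 1 was 0.10, so its direction there rests on slide 1. On every slide that held siRNA 2, 5 of 6 genes were lower than Control, all but Cxcr4, as 28.1% of all genes were. For siRNA 1 this held for Foxa2 alone, against 8.3% of all genes.

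**Figure D2:**
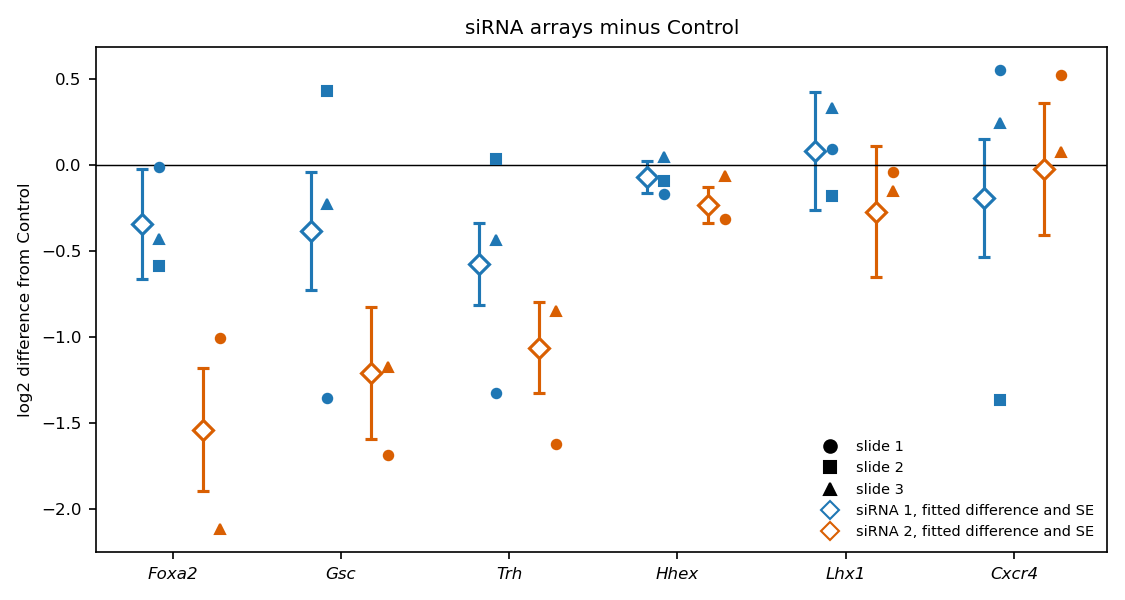
Log2 difference from Control (y axis) for the 6 tested genes (x axis). Diamonds with bars are the limma difference and its SE over all arrays, and small points are an siRNA array minus the Control array of its slide. The siRNA 2 points of Foxa2, Gsc and Trh lie between -2.12 and -0.85, whereas those of Lhx1 and Cxcr4 lie between -0.15 and 0.52.

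The profile of each gene over the 8 arrays was set against 15554 other named genes that were tested. The points of such a correlation share groups, slides and hybridisations, and it is given as a description only. Foxa2 was most like Sh3tc2 (r = 0.990), Amn (r = 0.988) and Dram1 (r = 0.987) over 8 arrays. Amn, or amnionless, carries cubilin to the surface of visceral endoderm cells. Its difference from Control was -1.01 in siRNA 2 and -0.19 in siRNA 1. Trh was most like Meis2 (r = 0.973), Eomes (r = 0.970) and Snph (r = 0.970). Eomes, the T-box factor of streak and endoderm, was at -0.80 relative to Control in siRNA 2 and -0.45 in siRNA 1. Gsc was most like Snph (r = 0.980), Gskip (r = 0.974) and Slc22a23 (r = 0.968), so Snph was named for both Gsc and Trh. Its difference from Control was -0.87 in siRNA 2 and -0.45 in siRNA 1.

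Lhx1 was most like Olfr656 (r = 0.992), Gm6225 (r = 0.991) and Olfr694 (r = 0.989). Olfr656 and Olfr694 are olfactory receptor genes. On slide 1 the 3 genes stood at -0.38, -0.45 and -1.14 relative to the other slides, the same direction as Lhx1. Hhex was most like Fpr3 (r = 0.948), Lamc3 (r = 0.943) and Traf6 (r = 0.935). Cxcr4 was most like Peg3os (r = 0.985), Slc4a8 (r = 0.980) and Agap2 (r = 0.979), whose differences from Control all lay between -0.16 and 0.05.

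The other genes of these pathways, from lists chosen with earlier results known, gave 0 genes past an adjusted p of 0.05 in limma. Of the other definitive endoderm genes, 9 of 10 tested were below Control in siRNA 2 with a median of -0.58, where 52.3% of all genes were below Control. Of these, 4 had an unadjusted p under 0.05 in limma, where 2.24% of all genes passed as lower. In siRNA 1, 9 of 10 were below Control as well, where 44.7% of all genes were, with a median of -0.12. Gata4, a GATA factor of extraembryonic and definitive endoderm, was at -0.74 ± 0.27 (SE) in siRNA 2 and -0.28 ± 0.24 (SE) in siRNA 1. The median of these genes in siRNA 2 was -0.26 with normexp correction.

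The other genes of the anterior visceral endoderm were nearer to Control, with 7 of 10 below it in siRNA 2 and a median of -0.13, and 4 of 10 in siRNA 1 and a median of 0.01. Frzb, a secreted Wnt antagonist, was at -0.77 ± 0.34 (SE) in siRNA 2. Nodal itself, the ligand that directs endoderm formation, was at 3.43 to 3.83 in Control, 3.48 to 3.61 in siRNA 1 and 3.25 on both siRNA 2 arrays, a difference of -0.41 ± 0.13 (SE) in siRNA 2 and -0.12 ± 0.12 (SE) in siRNA 1. Limma's adjusted p for Nodal was 1.00 in both.

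Of the organizer and axial mesendoderm genes, 5 of 7 tested were below Control in siRNA 2, with a median of -0.13, and 5 of 7 in siRNA 1, with a median of -0.09. Fgf8, an FGF of the streak, was at -1.36 ± 0.31 (SE) in siRNA 2 and -0.82 ± 0.28 (SE) in siRNA 1. Shh was not well above background on any array. The components and targets of the Nodal pathway lay around Control as a list, with 10 of 17 below it and a median of -0.01 in siRNA 2, and 8 of 17 and 0.01 in siRNA 1. Furin, a protease that matures the Nodal precursor, was at -0.34 ± 0.14 (SE) in siRNA 2 and -0.41 ± 0.12 (SE) in siRNA 1.

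The partners, ligands and cofactors of the 7 genes, such as Ldb1 for Lhx1 and the Tle corepressors for Gsc and Hhex, also lay around Control, with 14 of 21 below it and a median of -0.05 in siRNA 2, and 12 of 21 and -0.01 in siRNA 1. Tle3 was at -0.31 ± 0.13 (SE) in siRNA 2. Trhr, the receptor of the Trh peptide, was not well above background on any array.

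**Figure D3:**
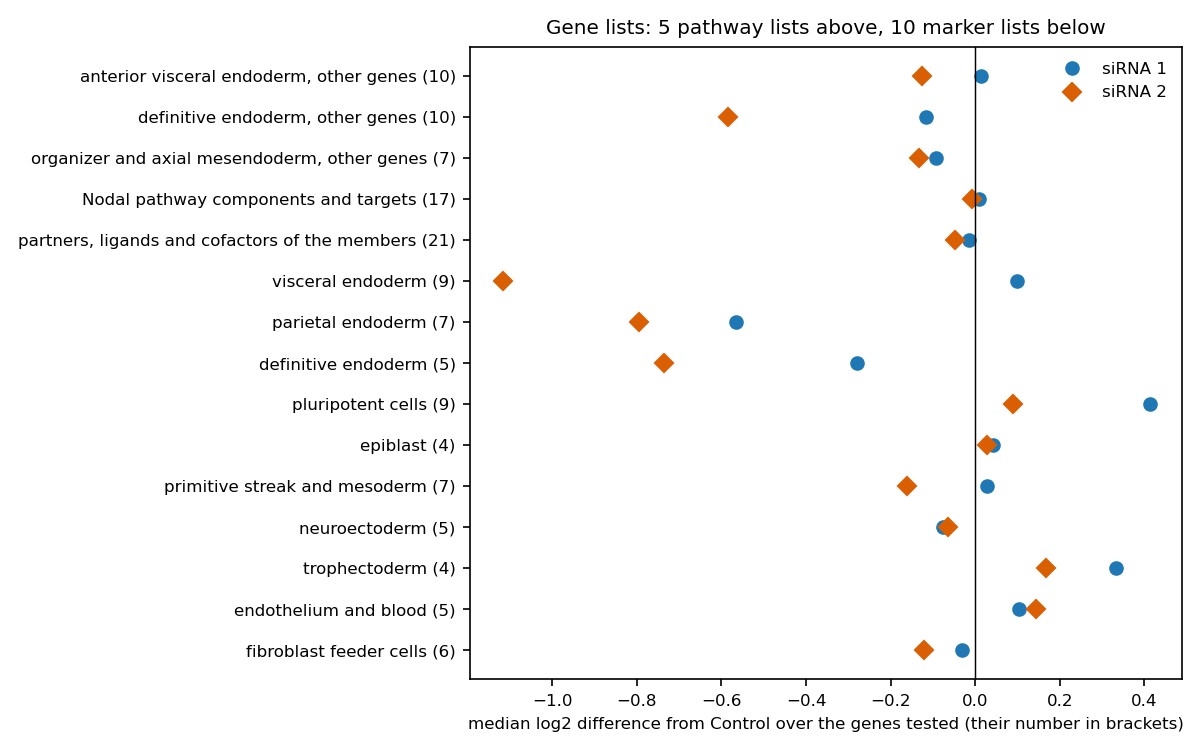
Median log2 difference from Control (x axis) over the tested genes of 5 pathway lists and 10 cell type marker lists (y axis, number of genes in brackets), for siRNA 1 (circles) and siRNA 2 (diamonds). In siRNA 2 the medians of visceral endoderm (-1.12), parietal endoderm (-0.80) and definitive endoderm markers (-0.74) lie farthest below 0. The definitive endoderm markers are all also in the pathway list of other definitive endoderm genes.

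Markers of the other cell types that an embryoid body can hold were read on the same arrays. Of the visceral endoderm markers, 8 of 9 tested were below Control in siRNA 2, with a median of -1.12, and 4 of 9 in siRNA 1, with a median of 0.10. Leaving out 1 array at a time, the siRNA 1 median ran from -0.16 without siRNA 1 replicate 2 to 0.17 without siRNA 1 replicate 1. The summed signal of all 10 markers, each relative to the 75th percentile, was 5.73, 8.68 and 10.5 in Control, 6.001, 9.73 and 6.58 in siRNA 1, and 4.11 and 3.998 in siRNA 2, in the order of replicates. Amn is 1 of these markers and was named above for its likeness to Foxa2, so its profile is no support for a shared one. Without Amn the sum of the other 9 was 4.54, 6.98 and 8.13 in Control, 4.76, 7.85 and 5.23 in siRNA 1, and 3.26 and 3.19 in siRNA 2. It was lowest on both siRNA 2 arrays and highest on Control replicate 3 and siRNA 1 replicate 2, and Cubn alone made up 47.9% to 69.1% of it. Cubn, the endocytic receptor that pairs with Amn, differed from Control by -1.25 ± 0.34 (SE) in siRNA 2 and -0.43 ± 0.30 (SE) in siRNA 1. Afp, a secreted protein of the visceral endoderm, was at -4.64 to -2.09 in Control and -2.92 to -2.58 in siRNA 1, and was not well above background on the siRNA 2 arrays. Foxa2 is itself expressed in visceral endoderm, and the part of these cells in its difference was not tested.

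The parietal endoderm markers were below Control for 7 of 7 genes in both siRNAs, with medians of -0.80 in siRNA 2 and -0.57 in siRNA 1. These medians turned on single Control arrays. They were -1.37 and -0.89 without Control replicate 1, and -0.34 and -0.18 without Control replicate 3. Without siRNA 2 replicate 2 the siRNA 2 median was -0.52, and without siRNA 1 replicate 3 the siRNA 1 median was -0.26. Their summed signal ranged from 77.2 to 123 in Control, 72.4 to 108 in siRNA 1 and 71.4 to 91.0 in siRNA 2, and the groups overlapped. Sparc, the brightest gene of the list, made up most of this sum on every array. Its difference from Control was -0.25 in siRNA 2, and the sum says little about the other markers. Col4a1 and Col4a2, collagen chains of the basement membrane, were at -1.21 ± 0.42 (SE) and -1.24 ± 0.45 (SE) in siRNA 2. The definitive endoderm markers are all also in the list of other definitive endoderm genes above, so they are not a separate set of genes. Of these markers 5 of 5 tested were below Control in both siRNAs, with medians of -0.74 in siRNA 2 and -0.28 in siRNA 1. The siRNA 1 median ran from -0.49 without siRNA 1 replicate 2 to -0.020 without Control replicate 3. Their summed signal was 1.03 to 1.89 in Control, 0.988 to 1.38 in siRNA 1 and 0.853 to 0.909 in siRNA 2. Gata6, shared by all 3 endoderm types, was at -1.21 ± 0.44 (SE) in siRNA 2.

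Markers of the primitive streak and of mesoderm form 1 mixed list, which was split as a whole. Of the primitive streak and mesoderm markers 4 of 7 tested were below Control in siRNA 2, with a median of -0.16, and 3 of 7 in siRNA 1, with a median of 0.03. Their summed signal was 9.28 to 11.3 in Control, 9.23 to 11.0 in siRNA 1 and 8.28 to 9.08 in siRNA 2. Evx1, a homeobox gene of the streak, was at -1.64 ± 0.41 (SE) in siRNA 2 and -0.71 ± 0.37 (SE) in siRNA 1. Eomes, which is also in this list, was lower in both siRNAs as given above. Evx1 was highest on Control replicate 1, as Gsc and Trh were. The part of the streak cells in the values of Gsc and Trh was not tested.

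**Figure D4:**
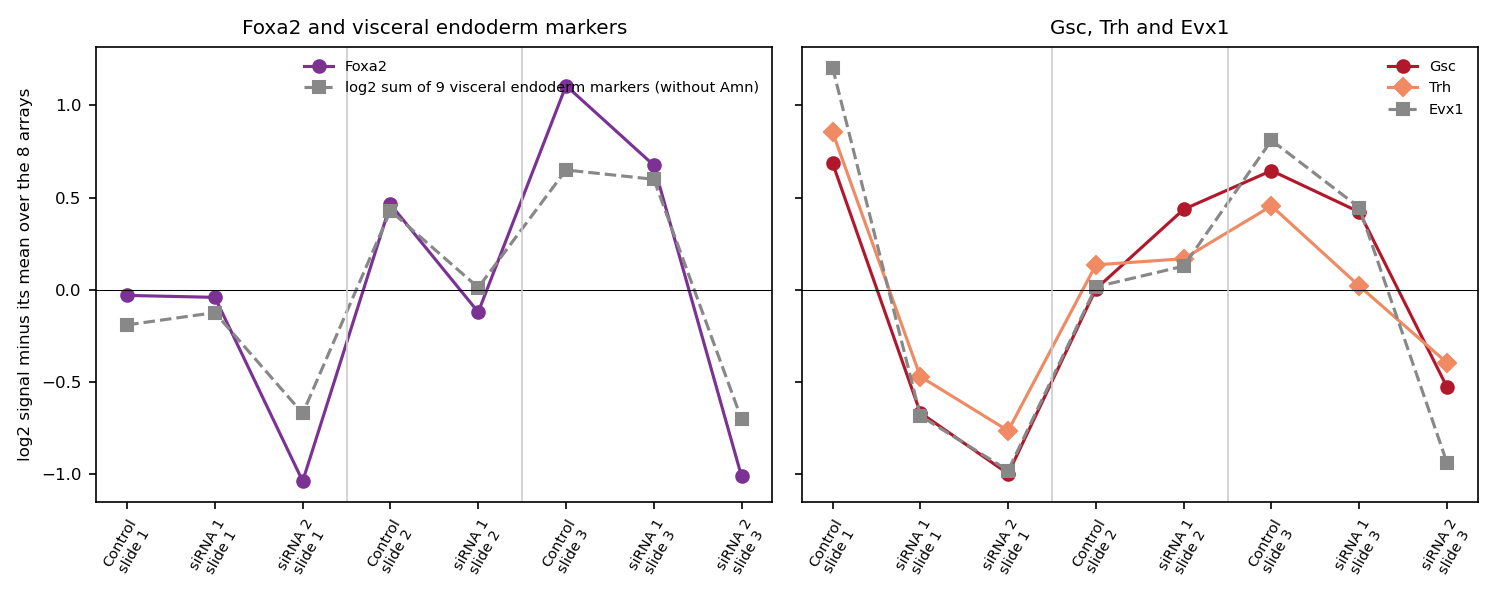
Log2 signal minus its mean over the 8 arrays (y axis), with the arrays ordered by slide (x axis, grey lines between slides). Left, Foxa2 and the log2 sum of 9 visceral endoderm markers without Amn are highest on Control of slide 3 and lowest on the 2 siRNA 2 arrays, and right, Gsc, Trh and Evx1 are highest on Control of slide 1.

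The remaining lists lay nearer to Control or above it. The pluripotent cell markers, which check the labelled cell type, passed the filter for 9 of 9 genes. In siRNA 1, 9 of 9 stood above Control, where 44.7% of all genes were below it, with a median of 0.41. In siRNA 2 it was 6 of 9, with a median of 0.09. Leaving out 1 array at a time, the siRNA 1 median ran from 0.24 to 0.72. The summed signal of these markers was 48.4, 37.8 and 36.8 in siRNA 1, in the order of replicates. It was 33.6 to 37.5 in Control and 32.7 to 38.3 in siRNA 2. Nanog was at 0.36 ± 0.13 (SE) and Tfcp2l1 at 0.62 ± 0.32 (SE) in siRNA 1. The epiblast markers, among them Pou3f1 at 0.33 ± 0.09 (SE) and Fgf5 at -0.19 ± 0.10 (SE) in siRNA 2, had medians of 0.04 in siRNA 1 and 0.03 in siRNA 2. The medians in siRNA 1 and siRNA 2 were -0.08 and -0.06 for neuroectoderm, 0.33 and 0.17 for trophectoderm, 0.10 and 0.14 for endothelium and blood, and -0.03 and -0.12 for fibroblast feeder cells. Of the blood vessel markers Tie1 was not well above background on any array, and Fap, a fibroblast marker, was above background in Control alone.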

How the data were processed

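The deposited scanner files hold 1 array each as intensity values, which, per the file headers, came from the authors' run of Agilent Feature Extraction 10.7.3.1. This processed signal has the background removed but is not scaled between arrays. Median spot and background intensities and spot flags were taken from the same deposited files. A deposited value table holds log2 values, centred on each probe, and served as an alternative. RMA is named in the submitters' processing notes, without its part. The value table's columns named Control 2 and Control 3 follow each other's scanner file, so they were exchanged there. Scanner file labels were used otherwise.

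Outlier and control spots were left out and spots of a probe were averaged. Accessions were matched to symbols through RefSeq (GRCm38.p6), which named 26424 of 39429 probes. The array was designed on build mm9, so no gene coordinates are given beyond the RefSeq promoter windows. Log2 processed intensity minus the 75th percentile of the array was fitted with limma 3.58.1 (lmFit, eBayes) in R 4.3.3 over 3 group means, with 5 residual and 2.12 prior degrees of freedom. A probe was kept where all arrays of some group had it well above background, 27391 in all, and the probe with the highest mean stood for its gene. Adjusted p-values (Benjamini-Hochberg) are over all 22427 genes, with a threshold of 0.05. The code of the fit was run on simulated arrays with independent noise and no slide effect. That run cannot tell how the fit behaves with the slides of these data.

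The members, the lists and the tests were chosen with earlier results of these data known. The genes named are all 7 members and the 3 genes most like each tested member. From each list, the 2 with the smallest p for the mean of both siRNAs are named too. Cxcl12, Sparc and genes not above background on any array are named beside them. A gene that this rule takes is not reported here, and counts include it. Deviations from the group means correlated at -0.041 to 0.70 over same-numbered arrays. By the scanner file labels each of these pairs above 0.3 shares a slide, and replicate numbers were not taken as pairs. The pairs below 0.3 all include Control replicate 2 or 3, whose labels differ in the value table. The low correlations therefore cannot decide whether the replicate numbers are pairs. The alternatives tried are in the closing section. The exchange of the value table's columns and the separate fit of the dimmer Foxa2 probe were chosen after seeing the data. Python 3.11.15 with pandas 2.3.3 was used for tables and matplotlib 3.10.9 for plots.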

Additional observations from a re-analysis of the deposited data

How the results depend on the processing

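Under up to 23 alternatives for each comparison, the difference of Foxa2 stayed below 0 in all comparisons, between -2.0001 and -1.14 in siRNA 2 against Control, and so did that of Trh, between -1.25 and -0.69. That of Gsc in siRNA 2 lay between -1.44 and -0.59. The smallest limma adjusted p over the alternatives for these 3 genes in siRNA 2 was 0.157, 0.161 and 0.174, and 0 members passed 0.05 in any. With array weights, 23 of all genes passed for the mean of both siRNAs. In that fit 3 of the 6 genes in place of 5 were below Control in siRNA 1. Control replicate 3 had a weight of 5.27 there, against 0.49 and 0.41 for Control replicates 1 and 2, so Control rested mostly on that array. With only the groups compared in the fit, 1 gene passed in siRNA 2 against siRNA 1, Afp, which is also the 1 list gene that passed. Afp was not well above background on the siRNA 2 arrays, so its values there have no order and no fold is given. Leaving out each array in turn, 0 to 1 genes passed in siRNA 2 against Control, the 1 without siRNA 2 replicate 2. Genes with small differences turned direction. Cxcr4 with array weights was at 0.13 for the mean of both siRNAs, 0.016 in siRNA 1 and 0.24 in siRNA 2, and in siRNA 2 also at 0.025 with median scaling, 0.024 without background correction, 0.045 with normexp, 0.074 with quantile normalization and 0.0050 with the slide as a block. Leaving out 1 array at a time, Cxcr4 ranged from -0.28 to 0.22 for the mean of both siRNAs, -0.41 to 0.13 in siRNA 1, -0.26 to 0.30 in siRNA 2 and -0.10 to 0.40 in siRNA 2 against siRNA 1, and Lhx1 from -0.37 to 0.083 for the mean, -0.20 to 0.36 in siRNA 1 and -0.60 to 0.057 in siRNA 2. Gsc in siRNA 1 was at 0.10 without the arrays of slide 1, and Hhex in siRNA 1 at 0.026 with array weights. With the replicate number as a block, Cxcr4 in siRNA 2 against siRNA 1 was at -0.050 and Foxa2 in siRNA 2 against Control at -1.46, and 0 members passed. Arrays on 1 slide correlated at 0.33 to 0.70 in 6 of 7 pairs and at 0.044 in the other. Under the value table's column names arrays of 1 number would share a slide, and which labelling holds was not settled here. The cause of these turns was not tested. For 2 alternatives the median spot signal stood in for the planned mean. The signal over background limits Cer1 and Cxcr4.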
